A study of Homo sapiens with 22 samples.

Results

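The olfactory receptor genes of human chromosome 11 were examined in 4 lists of chromatin regions. Members were the RefSeq protein-coding genes of the chromosome whose symbol is OR followed by a digit, which gave 171 genes. Of these, 168 had a position on the chromosome itself and were analysed, out of 19821 protein-coding genes of chromosomes 1 to 22 and X. OR8U8, OR8U9 and OR9G9 were placed on scaffolds in the RefSeq table and were not analysed here. A member's window was its body plus 10 kb on each side, and a region belonged to the member if the 2 overlapped by at least 1 bp.

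The series held 22 libraries from human cell lines in 6 groups and compared chromosome conformation assays. ATAC-seq reads out open chromatin through cuts by the transposase Tn5. It was run on 8 libraries of HFFc6 and 2 of H1, with no treatment named. HFFc6 is the c6 subclone of HFF-hTERT, human foreskin fibroblasts immortalised with telomerase, and so a single clone. H1 is a line of human embryonic stem cells. Cut&Tag for CTCF, the zinc-finger protein that holds the base of chromatin loops, was run on 2 HFFc6 libraries. Their titles begin with HFF1, while the cell line given is HFFc6, and they end in chip rather than in a word for Cut&Tag. A list named for CTCF in hESC, human embryonic stem cells, is described by no sample label, so its assay and libraries are unknown here. The other 10 libraries, for H3K4me3, H3K27ac and SMC1, were not analysed here. Each list was a single call for its group with no value per library. Spread between libraries is therefore unknown, no test between lists was possible, and the values below describe the lists. Of the 8 markers fixed for each line, 5 had a start window. For H1 cells 4 of 5 held an H1 ATAC region and 1 an HFFc6 one. For HFFc6 fibroblasts 2 of 5 held an H1 and 5 an HFFc6 one. Over all protein-coding genes with a start window, 74.1% held an H1 and 71.8% an HFFc6 ATAC region. Within the body plus 10 kb, all 8 markers of each line had regions of both ATAC lists.

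Olfactory receptors are G protein-coupled receptors that bind odorants on the cilia of sensory neurons in the nose. Each neuron expresses a single receptor allele out of the whole family, and the unused receptor genes are kept silent in heterochromatin. Families 51, 52 and 56 are class I, the receptors related to those of fish, and the other families are class II, which make up most of the mammalian repertoire. Neither fibroblasts nor embryonic stem cells are olfactory neurons.

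The annotated starts were read first, because a region there is the closest these lists come to a promoter. RefSeq start windows on GRCh38 patch 14, 250 bases before to 50 after the start, were found for 135 of the 168 members. In 64 of their 138 windows the annotated start is the ATG itself, so that for these members the gene model holds no sequence before the coding region and the window may lie away from the promoter. An ATAC region touched the start window of 6 members. Their 250 bases before the start are printed 5′ to 3′ on the gene's strand, with the bases inside the ATAC region in capitals. OR52N2 is shown with the HFFc6 region (the H1 region covered the same 250 bases), OR6A2 and OR4D9 with HFFc6 regions, and OR10A2, OR5A2 and OR8A1 with H1 regions.
OR52N2, chr11:5808674-5808923, plus strand: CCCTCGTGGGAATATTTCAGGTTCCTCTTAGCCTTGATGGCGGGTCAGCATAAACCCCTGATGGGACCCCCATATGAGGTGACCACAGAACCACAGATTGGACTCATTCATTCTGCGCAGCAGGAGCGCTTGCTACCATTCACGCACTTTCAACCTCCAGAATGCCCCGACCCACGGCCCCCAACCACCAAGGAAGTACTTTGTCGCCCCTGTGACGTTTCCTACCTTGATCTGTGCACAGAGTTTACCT
OR6A2, chr11:6799690-6799939, minus strand: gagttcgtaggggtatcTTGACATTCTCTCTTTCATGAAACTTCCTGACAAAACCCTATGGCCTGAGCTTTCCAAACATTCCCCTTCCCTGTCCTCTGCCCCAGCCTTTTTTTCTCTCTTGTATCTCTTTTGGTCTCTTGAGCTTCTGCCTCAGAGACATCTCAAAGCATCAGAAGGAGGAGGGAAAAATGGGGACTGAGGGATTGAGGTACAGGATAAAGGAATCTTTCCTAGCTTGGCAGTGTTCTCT
OR10A2, chr11:6862807-6863056, plus strand: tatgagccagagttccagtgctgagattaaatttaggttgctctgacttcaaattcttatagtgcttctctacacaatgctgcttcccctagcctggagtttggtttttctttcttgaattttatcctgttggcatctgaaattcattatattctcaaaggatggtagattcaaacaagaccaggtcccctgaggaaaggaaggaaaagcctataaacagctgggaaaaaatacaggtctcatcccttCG
OR5A2, chr11:59426414-59426663, minus strand: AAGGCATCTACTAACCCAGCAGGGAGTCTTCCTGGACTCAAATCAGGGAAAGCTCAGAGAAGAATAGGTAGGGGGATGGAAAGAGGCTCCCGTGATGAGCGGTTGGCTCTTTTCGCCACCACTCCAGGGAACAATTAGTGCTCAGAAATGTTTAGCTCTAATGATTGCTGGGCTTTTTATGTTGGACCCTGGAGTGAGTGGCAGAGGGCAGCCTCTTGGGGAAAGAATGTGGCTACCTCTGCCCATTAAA
OR4D9, chr11:59511289-59511538, plus strand: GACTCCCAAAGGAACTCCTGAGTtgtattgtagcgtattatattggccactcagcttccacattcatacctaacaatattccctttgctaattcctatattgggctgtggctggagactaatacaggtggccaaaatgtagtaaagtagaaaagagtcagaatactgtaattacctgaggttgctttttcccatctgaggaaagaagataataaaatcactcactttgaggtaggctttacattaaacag
OR8A1, chr11:124569747-124569996, plus strand: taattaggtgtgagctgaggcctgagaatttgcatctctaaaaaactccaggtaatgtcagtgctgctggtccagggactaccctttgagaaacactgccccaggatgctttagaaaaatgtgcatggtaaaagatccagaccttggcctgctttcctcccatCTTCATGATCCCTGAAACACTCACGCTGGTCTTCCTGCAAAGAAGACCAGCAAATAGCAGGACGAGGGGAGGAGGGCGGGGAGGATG

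OR52N2 was the only member with regions of all 4 lists on its start window. The site there (chr11:5808016-5809498) had a fold enrichment of 12.8 in the HFFc6 ATAC list and 12 in the H1 ATAC list. The same site had 12.6 in the HFFc6 CTCF list and 18.4 in the hESC-named CTCF list. Fold enrichment is signal divided by the background that the authors' peak caller estimated, and it ranks regions within a list only. The start window of OR5A2, a class II receptor gene, held an H1 ATAC region of fold enrichment 10.3 and a region of the hESC-named CTCF list. OR6A2, the human relative of a rodent receptor for octanal, had an HFFc6 ATAC region of fold enrichment 5.07 that reached 233 of the 250 bases. In the other 3 a smaller part of the 250 bases lay in a region. OR10A2 had 2 bases in an H1 region of fold enrichment 6.33, and OR8A1 had 87 bases in an H1 region of fold enrichment 4.47. Both regions ran on across the start into the gene body. The median over H1 ATAC regions in member windows was 5.21. OR4D9 had 23 bases in an HFFc6 region of fold enrichment 2.09, which ended before the start.

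Start windows with a region were thus 3 of 135 members in the HFFc6 ATAC list (2.22%, Wilson 95% interval 0.759 to 6.33%). They were 4 in the H1 ATAC list, 1 in the HFFc6 CTCF list and 2 in the hESC-named CTCF list. Over the 15813 protein-coding genes with a start window, the shares were 71.8, 74.1, 65.2 and 61.7% in the same order. The members' shares lay far below these in all 4 lists. The 2 sets of windows are unlike, however. The annotated start is the ATG in 64 of 138 member windows, against 615 of 22156 windows of all protein-coding genes. No member window with an ATAC region was of that kind. The part of this in the low shares was not tested. Wilson intervals here cover counting error only, and neighbouring members often share a region, so they are not independent draws.

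Within the whole window, 57 of 168 members had an HFFc6 ATAC region (33.9%, interval 27.2 to 41.4%) and 90 had an H1 ATAC region (53.6%, 46.0 to 61.0%). An HFFc6 CTCF region was found for 32 members (19.05%, 13.8 to 25.6%) and a region of the hESC-named CTCF list for 57 (33.9%). Of all protein-coding genes, 92.1% had an HFFc6 ATAC region, 94.6% an H1 ATAC region, 87.8% an HFFc6 CTCF region and 92.0% a region of the hESC-named CTCF list. No region of any list lay in the windows of 62 members (36.9%), against 3.37% of all protein-coding genes. Regions of all 4 lists lay in the windows of 24 members (14.3%), against 85.2% of all protein-coding genes.

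The members are short genes, with a median body of 1103 bp against 24482 bp for all protein-coding genes, and a short window meets fewer regions. Among the 3096 protein-coding genes with a body of at most 5 kb 77.6% had an HFFc6 ATAC region, 82.8% an H1 ATAC region, 69.2% an HFFc6 CTCF region and 76.3% a region of the hESC-named list. The 111 members of that length stood at 27.9, 39.6, 9.91 and 20.7%, and 53 of them had no region in any list. Receptor genes of the same family on other chromosomes (n = 221) stood at 32.6, 43.9, 18.1 and 35.7%, with intervals that overlap the members' in every list. Other clustered families did not look like this. Of 250 ZNF genes of chromosome 19, which encode zinc-finger repressors, 95.6% had an HFFc6 ATAC region, and all 55 histone genes of chromosome 6 had regions of all 4 lists. The sources used here do not say how reads that map to several near-identical receptor copies were treated, and the part of this in the low counts was not tested.

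**Figure D1:**
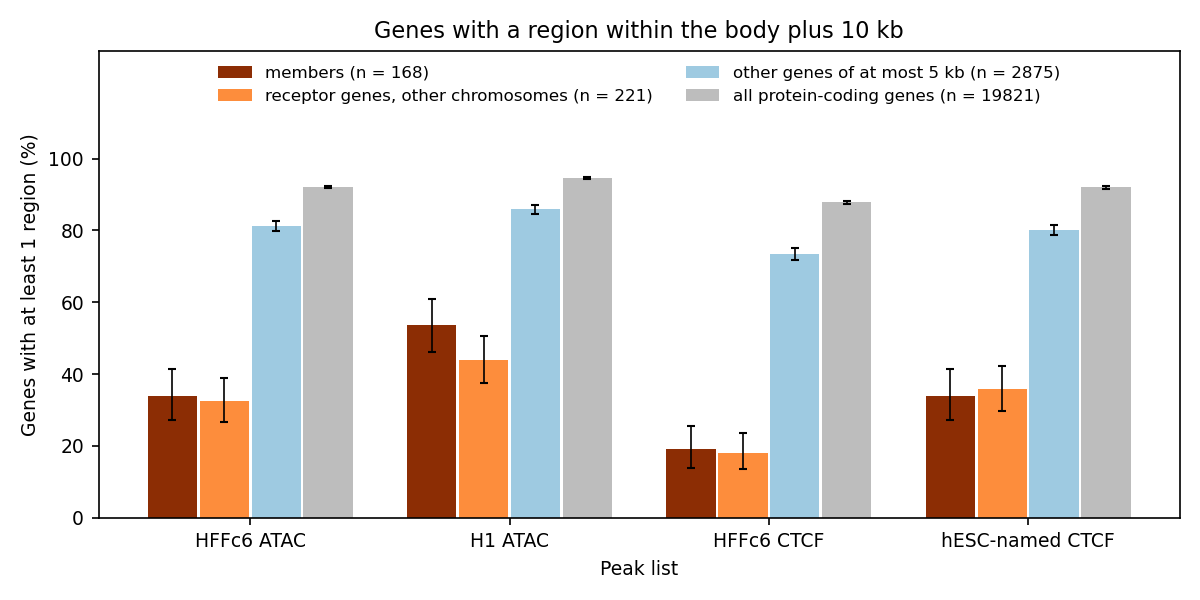
Percentage of genes with at least 1 region within the body plus 10 kb, for each peak list. Bars are the 168 members, 221 olfactory receptor genes of other chromosomes, 2875 other genes of at most 5 kb and all 19821 protein-coding genes, and error bars are Wilson 95% intervals for counting error. The members and the receptor genes elsewhere stand between 18.1 and 53.6%, below the other genes in every list.

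Regions were also scarce per length. The merged member windows covered 3.46 Mb and held 97 HFFc6 ATAC regions, 135 H1 ATAC regions, 39 HFFc6 CTCF regions and 74 regions of the hESC-named CTCF list. That is 28.01, 38.98, 11.3 and 21.4 regions per Mb. Chromosome 11 as a whole held 57.0, 69.1, 32.2 and 40.6 per Mb. In the gene body itself, 11 members had an HFFc6 ATAC region (6.55%), 40 an H1 ATAC region (23.8%), 9 an HFFc6 CTCF region (5.36%) and 15 a region of the hESC-named CTCF list (8.93%). Of all protein-coding genes, 84.4, 87.1, 79.1 and 79.9% had one in the body. Of protein-coding genes of at most 5 kb, 51.65, 55.56, 45.64 and 42.15% had one. The 111 members of that length stood at 1.80, 9.01, 0 and 0.90%. Of the regions in member windows, 31 of 97 HFFc6 ATAC, 58 of 135 H1 ATAC, 15 of 39 HFFc6 CTCF and 23 of 74 hESC-named CTCF regions overlapped a member's body.

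A larger share of class I than of class II members carried regions in each list, with intervals that overlapped for both HFFc6 lists and not for the H1 ATAC and hESC-named CTCF lists. Of 55 class I members, 23 (41.8%) had an HFFc6 ATAC region, 46 (83.6%, 71.7 to 91.1%) an H1 ATAC region, 16 (29.1%) an HFFc6 CTCF region and 28 (50.9%) a region of the hESC-named CTCF list, and 7 had none. Of 113 class II members, 34 (30.1%), 44 (38.9%, 30.5 to 48.2%), 16 (14.2%) and 29 (25.7%) had one, and 55 had none. All class I members lie in a single cluster on the short arm, so class and place cannot be told apart across the whole set. The 12 class II members of that same cluster give a partial comparison within it. Of these, 8 had an HFFc6 ATAC region, 7 an H1 ATAC region, 2 an HFFc6 CTCF region and 6 a region of the hESC-named CTCF list, and 4 had none. For HFFc6 ATAC the class II members of the cluster (66.7%, 39.1 to 86.2%) were thus not below the class I members, and for H1 ATAC (58.3%, 31.9 to 80.7%) they were lower with overlapping intervals.

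Families differed within each class. All 7 members of family 56 had an H1 ATAC region and only OR56B1 among them had an HFFc6 ATAC region. OR56A3, with a body of 79760 bp, held 7 H1 ATAC regions in its window, 5 of them in the body. OR56A1 held 4, some of them also in the window of OR56A3, and neither member had an HFFc6 ATAC region. Of the 23 members of family 51, 19 had an H1 and 10 an HFFc6 ATAC region, and of the 25 of family 52 the numbers were 20 and 12. In class II, all 5 members of family 2 had regions of both ATAC lists. Family 4 was at the other end, with no region in any list for 18 of its 24 members. All 9 members of subfamily OR4C, spread over 3 clusters, and all 4 of subfamily OR4A had no region in any list. Family 5, the one with most members here (34), had none for 19, and family 8 had an H1 ATAC region for 13 of 22 and an HFFc6 one for 4.

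The members fell into 7 clusters when neighbours more than 1 Mb apart were separated. Cluster 1 runs from OR52B4 to OR10A3 (chr11:4367263-7941708) with 67 members. Cluster 2 runs from OR4B1 to OR4A47 (chr11:48216810-48489722, 7 members), and cluster 3 is OR4C13 and OR4C12. Cluster 4, beyond the centromere, runs from OR4C46 to OR5AK2 (chr11:54603069-56989843, 48 members) and cluster 5 from OR9Q1 to OR10V1 (chr11:58023881-59713845, 21 members). OR2AT4 (chr11:75081753-75096890) stands alone as cluster 6. Cluster 7, near the end of the long arm, runs from OR6X1 to OR8A1 (chr11:123753580-124571374, 22 members).

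**Figure D2:**
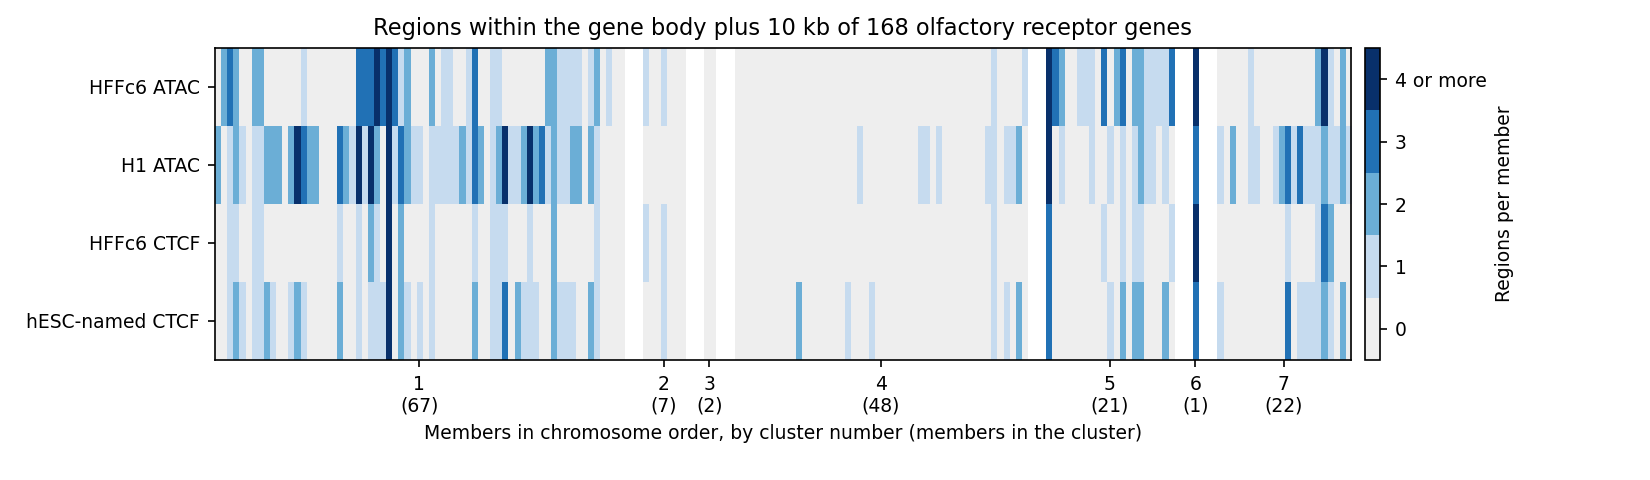
Number of regions within the body plus 10 kb of each of the 168 members, in chromosome order from left to right and separated by cluster, with 1 row per peak list. Pale cells are members with no region; cluster 4 is nearly empty in all rows, while cluster 1 is filled mainly in the H1 ATAC row.

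Cluster 4 was the emptiest of the large clusters. Only 2 of its 48 members had an HFFc6 ATAC region, OR5M1 and OR5AK2, and 9 had an H1 ATAC region. OR5M1 was the only member of the cluster with an HFFc6 CTCF region, and 6 members had a region of the hESC-named CTCF list. The 35 members with none included 10 in a row, from OR4C46 to OR4C6 over 1063 kb, and 3 runs of 7 members each, OR5D13 to OR5W2, OR8H2 to OR5T3 and OR8J1 to OR5M11. From the start of the cluster, 2022 kb passed before the first HFFc6 ATAC region, with 43 members on the way. Before the first H1 ATAC region 1292 kb passed with 17 members. The stretches between the member windows of cluster 4 were as sparse, with 2.04 HFFc6 and 7.50 H1 ATAC regions per Mb, against 2.13 and 10.6 inside the windows.

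In cluster 1 the stretches between member windows were denser in regions than the windows. These stretches include long ones without a member, between OR52W1 and OR2AG2 and between OR2D3 and OR5P2, with genes such as ILK and PPFIBP2. Their densities are thus not those of the near surroundings of receptors alone. Its member windows held 40.1 HFFc6 and 64.2 H1 ATAC regions per Mb, and the stretches between them held 73.7 and 85.9. CTCF regions were also denser between the windows, with 39.1 per Mb against 15.3 for HFFc6 CTCF and 46.8 against 29.9 for the hESC-named list. Cluster 1 contains 43 other protein-coding genes, among them several TRIM genes. All 43 had regions of both ATAC lists, as did 90.5% of all protein-coding genes. Of the 67 members, 31 had an HFFc6 ATAC region, 53 an H1 ATAC region, and 11 had no region in any list. The 3 in a row without any region were OR51G1, OR51A4 and OR51A2.

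Cluster 5 was the large cluster in which HFFc6 regions prevailed. Of its 21 members, 16 had an HFFc6 ATAC region and 10 an H1 ATAC region, and its windows held 27 HFFc6 and 12 H1 regions. OR6Q1, OR10V1 and OR5B3 had 3 HFFc6 ATAC regions and no H1 ATAC region each, and OR5B12 had 2 and none. OR5B2 was the only member there with an H1 ATAC region and no HFFc6 ATAC region. The cluster also contains 14 other protein-coding genes. The stretches between the member windows held 80.0 HFFc6 and 44.6 H1 regions per Mb. Both densities were above those of the member windows, and HFFc6 regions prevailed in windows and stretches alike. In cluster 7 H1 regions prevailed instead. There 5 of 22 members had an HFFc6 and 17 an H1 ATAC region, with 7 against 22 regions, and the stretches between the windows held 21.1 against 79.7 per Mb. OR8G5 and OR10D3 had 3 H1 ATAC regions and no HFFc6 ATAC region each, and all 5 members with an HFFc6 ATAC region also had an H1 ATAC region (OR10S1, OR8B2, OR8B3, OR8B4 and OR8B12). In cluster 2, OR4B1 and OR4S1 had 1 HFFc6 ATAC and 1 HFFc6 CTCF region each, and none of the 7 members had an H1 ATAC region.

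**Figure D3:**
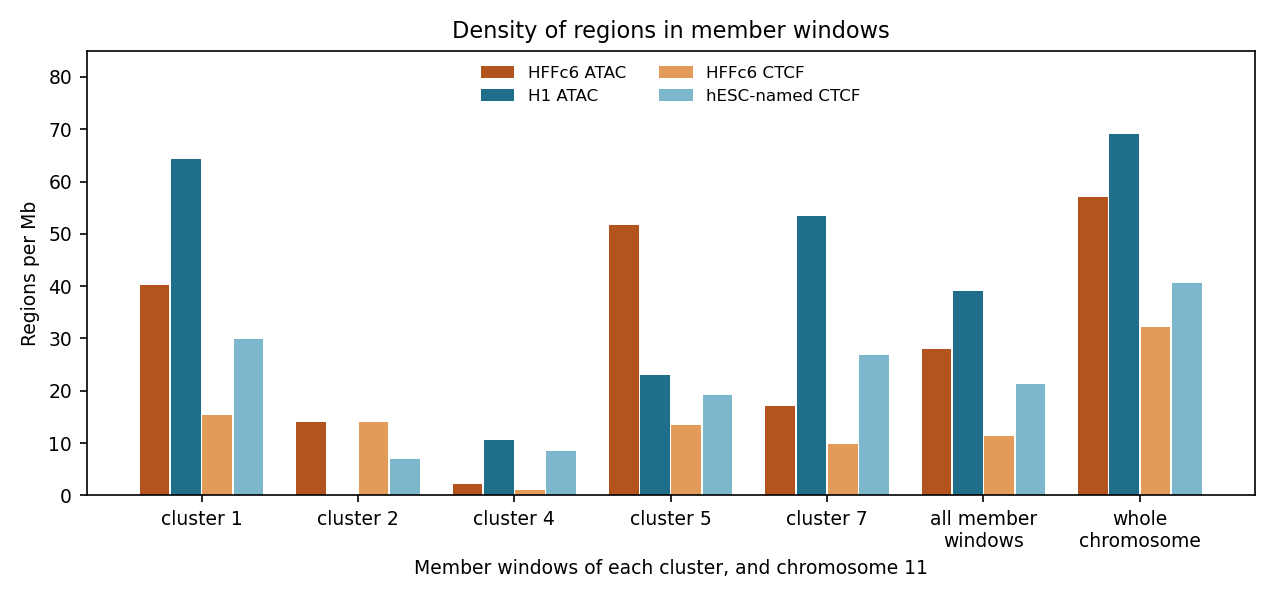
Regions per Mb of merged member windows in the 5 clusters with over 2 members, in all member windows and along chromosome 11, with 1 bar per peak list. H1 ATAC stands above HFFc6 ATAC in clusters 1, 4 and 7 and below it in clusters 2 and 5.

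The H1 ATAC list holds many regions of modest confidence, and this bears on each H1 count. In member windows, 42.2% of the H1 ATAC regions and 82.5% of the HFFc6 ATAC regions reached a −log10 q of at least 10. Over the whole lists the shares were 48.4 and 85.2%. With that limit on both lists, 49 members had an H1 region and 51 an HFFc6 region, so the order of the lists turned. With equal list lengths instead, the order stayed, with 83 members against 57. The −log10 q limit gave 30 class I members with an H1 region against 22 with an HFFc6 region, and 19 against 29 class II members. By cluster the limited counts of regions were 38 H1 against 47 HFFc6 in cluster 1, 3 against 1 in cluster 4, 5 against 22 in cluster 5 and 8 against 5 in cluster 7. The excess of HFFc6 regions in cluster 5 kept its size and the excess of H1 regions in cluster 1 turned over. In family 56, OR56B1, OR56B2 and OR56A5 kept no H1 ATAC region under the limit, and the same held for OR8G5 of cluster 7. The lists give no read depth, and the 8 HFFc6 and 2 H1 libraries differ in number, so depth, number of libraries and cell line cannot be told apart.

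Regions in member windows formed 219 separate sites when overlapping regions of the 4 lists were joined, each to the next. A site in several lists thus need not hold a base common to all of them. At OR8B3 (chr11:124414132-124416127) the H1 ATAC region overlapped neither the HFFc6 ATAC region nor a region of the hESC-named list. Of the 219 sites, 146 were in 1 list, 44 in 2, 9 in 3 and 20 in all 4. The most frequent single pattern was H1 ATAC alone (76 sites), followed by HFFc6 ATAC alone (54) and H1 ATAC with hESC-named CTCF (24). At 7 sites both ATAC lists had a region and neither CTCF list did. Sites were not built outside member windows, so these counts have no share over the genome beside them.

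Of the HFFc6 ATAC regions in member windows, 29 of 97 were found in the H1 list (29.9%, 21.7 to 39.6%), against 34.7% of the whole HFFc6 list. Of the H1 regions, 31 of 135 were found in the HFFc6 list (22.96%, 16.7 to 30.8%), against 31.8% of the whole H1 list. The interval of the first share includes the value of the whole list, and that of the second lies below it.

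CTCF regions were few but shared more often in one direction. Of 39 HFFc6 CTCF regions, 28 overlapped a region of the hESC-named list (71.8%, 56.2 to 83.5%), against 50.9% of the whole HFFc6 CTCF list. In the other direction 27 of 74 were shared (36.5%, 26.4 to 47.9%), against 41.3%. Shared regions of the hESC-named list in member windows had a median fold enrichment of 16.8 and those without a partner 5.01. Over that whole list the medians were 12.3 and 5.07. For the HFFc6 CTCF list the medians in member windows were 7.15 for shared and 5.80 for unshared regions, and over the whole list 8.19 and 4.69.

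CTCF regions lay largely in open chromatin. In the HFFc6 list, 32 of 39 overlapped an HFFc6 ATAC region (82.1%, against 84.99% of the whole list), and 49 of 74 in the hESC-named list overlapped an H1 ATAC region (66.2%, against 72.6%). Cut&Tag itself uses Tn5, which favours open DNA, and its part in this overlap was not tested. Of the 28 shared HFFc6 CTCF regions, 18 overlapped regions of both ATAC lists, as did 73.4% of the shared regions of the whole list. Of the 11 that the hESC-named list lacked, 10 overlapped HFFc6 ATAC alone, against 70.2% in the whole list, and 1 overlapped both. Members with an HFFc6 CTCF region and none of the hESC-named list were OR4B1, OR5B3 and OR10V1.

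Of the 20 sites in all 4 lists, cluster 1 held 13. The region of highest fold enrichment of the hESC-named list lay beside OR51D1 (chr11:4636476-4637698), with 25.9 there, 13.6 in the HFFc6 CTCF list, 15.1 in HFFc6 ATAC and 21.8 in H1 ATAC. Next came sites at OR52K1 (chr11:4492755-4494042) and OR52M1 (chr11:4539249-4540394), each with 25.4 in the hESC-named list. The H1 ATAC region of highest fold enrichment, 23, had its summit 4548 bp from the body of OR52A5 (chr11:5123609-5124737). The only such site in cluster 4 lay at OR5M1 (chr11:56624342-56625203), with 6.03 in the HFFc6 CTCF list and 17.3 in the hESC-named list. In cluster 7 a site in the body of OR8B3 and in the window of its neighbour OR8B2 (chr11:124401948-124403046) led both HFFc6 lists, with 18.8 for ATAC and 16.2 for CTCF. H1 ATAC and the hESC-named list both had 16.8 there. The next HFFc6 CTCF regions had their summits 6490 bp from OR10D3, with 15.5, and 5881 bp from OR5B21, with 15.2.

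**Figure D4:**
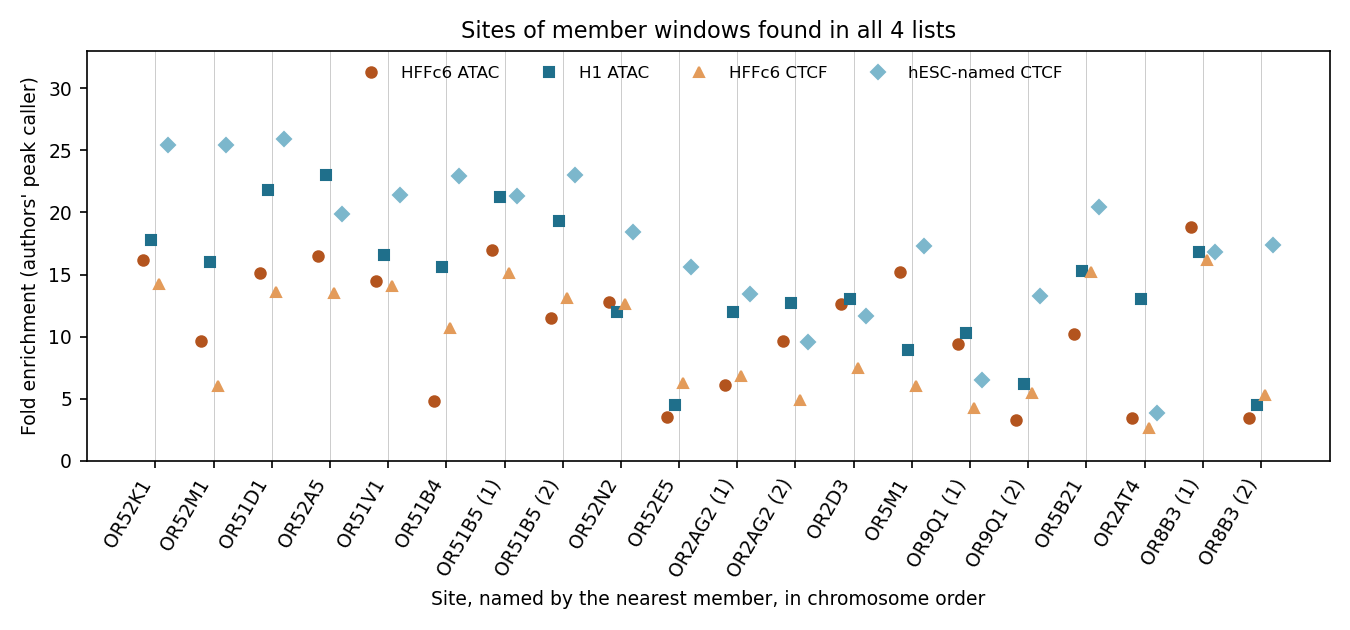
Fold enrichment given by the authors' peak caller at the 20 sites of member windows found in all 4 lists, named by the nearest member and in chromosome order, with 1 symbol per list. Sites are chains of overlapping regions, so regions of different lists at a site need not all overlap each other. Levels are not comparable between lists; within the hESC-named CTCF list the sites run from 3.83 at OR2AT4 to 25.9 at OR51D1.

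Members with most regions included both long and short gene models. OR51B5, with an annotated body of 165335 bp that spans several other receptor genes, held 14 HFFc6 and 13 H1 ATAC regions, 6 HFFc6 CTCF regions and 9 of the hESC-named list. OR9Q1, with 157736 bp, held 10, 5, 3 and 3. Among shorter genes, OR2AT4 held 4, 3, 4 and 3, OR8B3 held 4, 2, 3 and 2, and OR51V1, with a body of 948 bp, held 3, 6, 2 and 1. OR51B4 had 4 HFFc6 ATAC regions, OR51S1 4 H1 ATAC regions, and OR10D3 and OR56A3 3 regions each of the hESC-named CTCF list. OR2AG2 had 2 regions in each of the 4 lists. Leaving out the 4 members over 20 kb changed no count of members or regions by over 1.5 times.

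Among 15 members with well-known ligands or with expression reported outside the nose, 6 had an HFFc6 ATAC region, 9 an H1 ATAC region, 4 an HFFc6 CTCF region and 8 a region of the hESC-named CTCF list. Over all 168 members the counts were 57, 90, 32 and 57. OR51E2, a receptor for short-chain fatty acids found in prostate, had 2 H1 ATAC and 2 hESC-named CTCF regions and no HFFc6 region. Its neighbour OR51E1, also expressed in prostate, had 2 HFFc6 ATAC regions and 1 region of each other list. OR2AT4, a receptor for the sandalwood odorant Sandalore in skin keratinocytes, had regions in every list. OR5A1, the receptor that sets sensitivity to beta-ionone, had 1 HFFc6 CTCF region and 2 regions of each other list. OR5AN1, a receptor for musk odorants, had none in any list, and the same held for OR10G4, OR52D1, OR10A6 and OR8K3. OR51L1 had 3 H1 ATAC regions and no HFFc6 ATAC region. OR10G7 had 2 H1 ATAC regions, OR8D1 had 1, and neither had an HFFc6 ATAC region. OR5P3 was the reverse, with 1 HFFc6 ATAC region and no other. OR6A2 and OR2AG1, which lie side by side, each had 1 HFFc6 ATAC, 1 H1 ATAC and 1 hESC-named CTCF region.

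On both sides of the beta-globin genes lie 9 listed members, and 9 had an H1 ATAC region and 7 an HFFc6 ATAC region. The shares over class I were 83.6 and 41.8%. These members are not separate counts. Every ATAC region of OR51B6, OR51M1, OR51I1 and OR51I2 also lay in the window of the long gene OR51B5. The H1 ATAC region of OR52A1 also lay in the body of OR52A5. The list leaves out OR51B2, which lies between OR51B4 and OR51B5 and had 3 HFFc6 ATAC regions and no H1 ATAC region, and OR51Q1, which had 2 of each. OR52A5 had 3 HFFc6 and 4 H1 ATAC regions and OR52A1 had 3 and 1. OR51B6 had 3 and 1, and OR51M1 had 1 and 3. OR51I1 and OR51I2 had 1 H1 ATAC region each and no HFFc6 one. Sites of all 4 lists lay at OR51V1 (chr11:5204167-5205241), with 14.1 in the HFFc6 CTCF list and 21.4 in the hESC-named list, and at OR51B4 (chr11:5291185-5292041), with 10.7 and 22.9. At the OR51B4 site the fold enrichment was 4.80 in HFFc6 ATAC and 15.6 in H1 ATAC.

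Genes that serve olfactory neurons had regions in nearly all windows, as protein-coding genes in general did. Of 11 genes of odorant signal transduction, 10 had an HFFc6 ATAC region in the window and 11 an H1 ATAC region, beside 92.1 and 94.6% of all protein-coding genes. CNGA2, a subunit of the olfactory cyclic nucleotide-gated channel, was the one with no HFFc6 ATAC region. On the start windows of the 9 with one, HFFc6 ATAC regions were found for 6 and H1 ATAC regions for 4, beside 71.8 and 74.1% of all genes with a start window. GNAL, the G protein alpha subunit of the pathway, had its start in all 4 lists, whereas CNGA4 and CNGB1, the other channel subunits, had theirs in none. All 4 genes of receptor transport and all 11 genes of receptor choice had regions of all 4 lists in their windows, as did 85.2% of all protein-coding genes. Of the latter, LHX2, a homeodomain factor that binds receptor enhancers, and its cofactor gene LDB1 had start windows in all 4 lists. So did EBF3, KDM1A, ATF5 and EIF2AK3. Among the 9 genes of receptor choice with a start window, each ATAC list had a region there for 7. For the CTCF lists the numbers were 6 (HFFc6) and 7 (hESC-named), beside 65.2 and 61.7% of all genes with a start window. EBF1 had its start window in none, although 46 H1 and 22 HFFc6 ATAC regions lay in its long window. Many of these genes act in other tissues too.

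The start windows of members were poorer in GC and CpG than those of other genes. Windows set at an annotated ATG are far more common among members, as given above, and their part in these contrasts was not tested. The 138 member windows had a median GC content of 37.0%, from 24.3 to 57.0%, against 62.3% for 22156 windows of protein-coding genes. They held a median of 1 CpG dinucleotide per 300 bases against 21, and 26.8% had none against 1.95%. OR52N2 stood out among the members with 14 CpG and a GC content of 55.3%. The next highest was OR51S1 with 6 CpG. In addition, 3 short motifs were searched on both strands. TAATTA, a core bound by many homeodomain proteins, was found in 24.6% of member windows and 3.39% of all windows. TATAAA, the TATA box core, was found in 36.2% and 9.46%. Both are made of A and T, which the members' windows are rich in. CCCNNGGG, the core of sites bound by EBF proteins, was found in 7.97% and 21.7%. Its fixed bases are C and G, which the members' windows are poor in. Class I windows had a median GC of 39.8% and class II windows 37.0%. TAATTA was found in 19% of class I and 27.1% of class II windows, TATAAA in 42.9 and 33.3%, and CCCNNGGG in 11.9 and 6.25%.

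**Figure D5:**
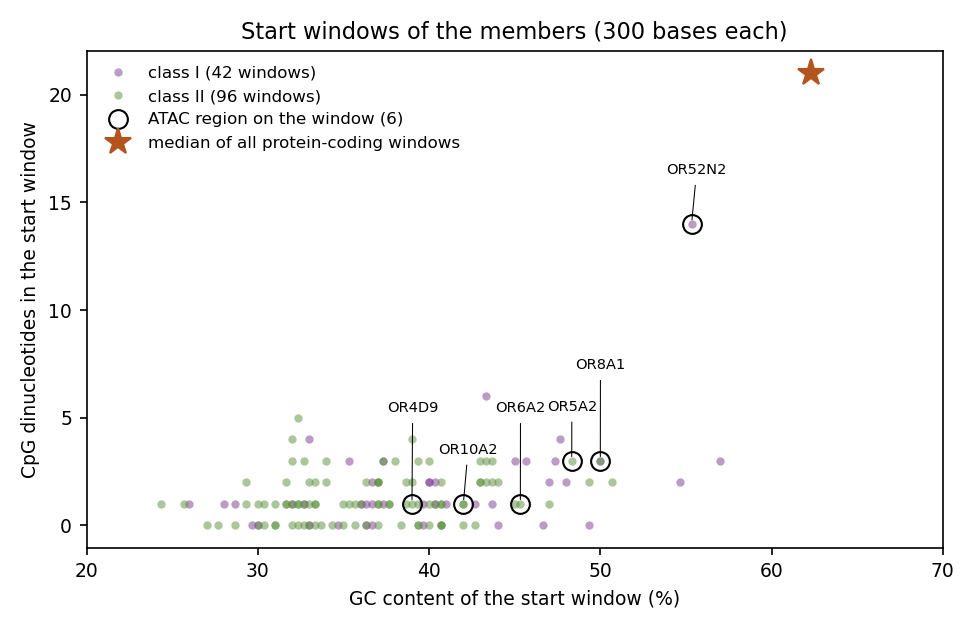
GC content (%) and number of CpG dinucleotides of the 138 start windows of members, each 300 bases, coloured by class, with the median of all protein-coding windows as a star. Circles mark the 6 windows with an ATAC region; OR52N2, with 14 CpG, lies nearest the star, and the other circled windows have 1 to 3 CpG.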

How the data were processed

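The authors deposited 4 peak lists. The submitters' processing notes name hg38, BWA, MACS2 and bedtools, while versions, filters, handling of multiply mapped reads and any control are not stated in the sources used here. Per the peak caller's columns, the authors' deposited fold enrichment is a ratio of signal over background and the deposited −log10 q-value goes down to a q of 0.05. The deposited score and −log10 p-value columns were not used.

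Peaks of chromosomes 1 to 22 and X were counted in windows of RefSeq genes (GRCh38 patch 14, without strand or exons), and overlap needed 1 bp. Sequences are RefSeq start windows of GRCh38 patch 14. Shares carry Wilson 95% intervals. No test was run, since no list has values per library. Depth per library is unknown. Python 3.11.15, pandas 2.3.3 and scipy 1.17.1 were used. The counting and overlap steps were tested on simulated data and gave 0 disagreements in 4000 windows and 6000 overlaps.

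The members, gene lists and naming rule were chosen with earlier results of these data known. Named members were those with a region on the start window, the 5 with most regions per list (ties by symbol), those nearest to the 3 regions of highest fold enrichment per list, 15 with known ligands, 9 beside the beta-globin genes and, chosen after their values were seen, members that illustrate a family or cluster. Alternatives were a −log10 q of at least 10, equal list lengths, 500 bp around each summit, other flanks, a 50% overlap, and leaving out members over 20 kb.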

Additional observations from a re-analysis of the deposited data

How the results depend on the processing

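Of 99 values recomputed under 7 alternatives for 21 results, 74 stayed within 1.5 times the reported count or within the interval of the reported share, 22 moved further and 3 turned direction. With 500 bp around each summit, and without members over 20 kb, none moved further. With a −log10 q of at least 10, members with an H1 ATAC region dropped to 49 and H1 ATAC regions to 57, and hESC-named CTCF regions to 49. Under that limit H1 minus HFFc6 turned to -2 for members, to -10 for class II members and to -9 for regions of cluster 1. It also gave 38.6% of H1 ATAC regions found in HFFc6 and 93.3% of HFFc6 CTCF regions in HFFc6 ATAC. With the gene body alone, members with a region were 11 and 40 for the HFFc6 and H1 ATAC lists and 9 and 15 for the HFFc6 and hESC-named CTCF lists, and regions were 31, 58, 15 and 23, which follows from the smaller windows. With 20 kb of flank, 52 members had an HFFc6 CTCF region and 87 one of the hESC-named list, from the larger windows. With an overlap of at least 50%, 14.4% of HFFc6 ATAC regions were found in H1 and 41.9% of hESC-named CTCF regions in H1 ATAC. In member windows the median width was 658 bp for HFFc6 ATAC regions and 277 bp for H1 ATAC regions. Apart from the changes of window size, the cause of these moves was not tested. With equal list lengths, H1 minus HFFc6 was 12 regions in cluster 1 and 6 class II members, in the reported direction. No paired analysis was possible because the lists hold no values per library. The lists give no read depth, so a window without a region shows only that no region was called there.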

Other observations

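Receptor pseudogenes are common on chromosome 11. Of 205 RefSeq olfactory receptor pseudogenes, 52 had an HFFc6 ATAC region within 10 kb (25.4%), 90 an H1 ATAC region (43.9%), 32 an HFFc6 CTCF region (15.6%) and 66 a region of the hESC-named CTCF list (32.2%), and 94 had none. Many share their surroundings with members. The 93 pseudogenes whose windows meet no member window stood at 23.7, 40.9, 18.3 and 27.96%, with 47 in none.

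Receptor genes elsewhere in the genome differed in which list prevailed. On chromosome 6, 12 of 17 had an H1 ATAC region and 4 an HFFc6 one, and on chromosome 12 the numbers were 10 and 2 of 18. On chromosome 1, 24 of 61 had an HFFc6 and 21 an H1 ATAC region, and on chromosome 19 the numbers were 9 and 6 of 20. On chromosome 14, 4 of 24 had a region in each ATAC list and 16 had none in any of the 4. These counts have no replicate and no test.

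Of the 61 other protein-coding genes inside the receptor clusters of chromosome 11, 58 had an HFFc6 and 58 an H1 ATAC region. Over all protein-coding genes the shares were 92.1 and 94.6%. Of the 61, 2 had no region in any list, beside 3.37% of all protein-coding genes. PPFIBP2 held the most regions over the 4 lists, with 25 HFFc6 and 17 H1 ATAC regions and 12 regions of each CTCF list. MMP26, a metalloproteinase gene whose annotated body of 287646 bp runs through class I receptors, held 19 H1 ATAC regions and 1 HFFc6 ATAC region. SYT9, a synaptotagmin gene, held 21 and 7.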
